A study of Mus musculus with 12 samples.

Results

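The 10 genes described here belong to the amino acid and integrated stress response and were followed in mouse urogenital sinus epithelium after deletion of Dnmt1: Atf4, Atf3, Ddit3, Trib3, Chac1, Asns, Psat1, Phgdh, Slc7a11 and Ddit4. These 10 of the 20308 genes in the table were chosen by name as Atf4 pathway genes while their differences between Dnmt1cKO and Control libraries were already known. That contrast is therefore given for them as a description, with no p-value, and supports nothing by itself. Where one of them is said to be called, this records that it passed a threshold applied to all genes and is not independent evidence. The Control group (4 libraries) was wildtype epithelium, and the Dnmt1cKO group (8 libraries) was epithelium in which Cre under Shh control removed Dnmt1, the enzyme that copies DNA methylation to new strands. All embryos were C57BL/6J at embryonic day 15.5, the epithelium was freed from stroma with trypsin, and every lysate pooled tissue of several embryos. The deletion is limited to cells with a history of Shh expression, and whether the wildtype embryos carried Cre or a floxed Dnmt1 allele is not given in the labels.

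Amino acid shortage, unfolded proteins, double-stranded RNA or heme shortage each activate a kinase that phosphorylates the translation factor eIF2 alpha. Most protein synthesis then slows, while the Atf4 messenger RNA is translated better, so much of the control of Atf4 does not appear in its RNA level. The Atf4 protein, a bZIP transcription factor, pairs with C/EBP proteins and binds composite C/EBP-ATF response elements in genes for amino acid synthesis, amino acid uptake and feedback. Atf3 and Ddit3 (also called CHOP) are bZIP factors that act with or after Atf4.

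The C/EBP-ATF element was looked for near the starts of the 10 genes, because it is the sequence feature that Atf4 binds. The genes were chosen as Atf4 pathway genes, so a share above that of all genes is not independent evidence. RefSeq promoter windows (build GRCm38.p6, 250 bases before and 50 bases after each annotated start) were found for all 10 genes, in 11 windows. The letters TGATGNAA were read on both strands. They occurred upstream of the RefSeq start in 4 of the 10 genes and in 3.91% of the 27025 genes with a window. One further gene, Trib3, held the letters only in the stretch that reaches past its RefSeq start. With that stretch counted the share was 5 of 10 genes against 4.51% of all genes. Each upstream match is printed here on the strand of its gene, 5′ to 3′, with the matched letters in capitals.
Asns, chr6:7693214-7693243, minus strand: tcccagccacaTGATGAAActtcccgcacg
Atf3, chr1:191183406-191183473, minus strand: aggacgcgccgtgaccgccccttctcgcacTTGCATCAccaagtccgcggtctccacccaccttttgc
Chac1, chr2:119351019-119351086, plus strand: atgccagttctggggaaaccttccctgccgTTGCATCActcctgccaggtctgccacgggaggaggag
Slc7a11, chr3:50443623-50443709, minus strand: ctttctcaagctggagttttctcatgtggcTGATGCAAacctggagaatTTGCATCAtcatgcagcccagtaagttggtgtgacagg

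The matches began 23 bases before the RefSeq start in Asns, 110 in Atf3 and 193 in Chac1. Slc7a11 held 2 matches on opposite strands, 66 and 47 bases before its start. Atf3, Chac1 and Slc7a11 carried the same 8 letters, TGATGCAA on one of the strands, and Asns carried TGATGAAA. These are matches of letters, not measured binding sites. The starts differ in GENCODE, where Asns begins at 7693254 and Atf3 at 191218039, both on the minus strand. The printed Asns and Atf3 stretches therefore lie inside those gene spans, and upstream refers to RefSeq starts only.

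Depth differed between the groups. Control libraries held 543591 to 7577706 expected counts and Dnmt1cKO libraries 4007533 to 11970907, and genes with a count numbered 6740 to 13098 and 10197 to 13829. Transcripts of the deleted gene, Dnmt1, stood at 114 to 237 CPM in Controls 1 to 3 and at 22.8 to 97.0 CPM in Dnmt1cKO. In the library labelled Control 4, the shallowest, Dnmt1 was a single count (2.84 CPM). This goes against that label but is also below every Dnmt1cKO library, so the level matches neither group. The exons removed are not given, so remaining transcripts cannot show where the deletion took place. Levels are in CPM, counts scaled by TMM to one common library size. A count of 0 allows at most 3 counts, at 95% confidence and for counting error only. These 3 counts correspond to 0.369, 1.01, 2.26 and 8.53 CPM in Controls 1 to 4 and to 0.219 to 0.856 CPM in Dnmt1cKO. The epithelial markers were present, with 14 or 15 of 15 detected in each library (Grhl2 was at 0 in Control 3) and summed levels of 4067 to 36630 CPM in Control and 6682 to 12160 CPM in Dnmt1cKO. Their levels varied widely where detected. Epcam was at least 515 CPM in each Control and 528 CPM in each Dnmt1cKO library. Trp63 and Foxa1 fell to 2.26 CPM in Control, against at least 103 and 76.1 CPM in Dnmt1cKO. Of 15 stromal markers, 12 to 15 were detected in each library, Col1a1 and Col3a1 in every library, with Twist1, Twist2, Tbx18 or Pdgfrb at 0 in some. All 15 had a negative fitted difference in Dnmt1cKO, with a median log2 fold change of -1.57, 5 of them at an unadjusted edgeR p under 0.05 and 0 called. Their summed level was 1314 to 10620 CPM in Control and 346 to 6569 CPM in Dnmt1cKO. Erythroid markers summed to 429 to 5799 CPM in Control and 10.49 to 1540 CPM in Dnmt1cKO, and 2 of 5 tested had a positive difference (median -1.55). Neural and glial markers summed to 176 to 747 CPM in Control and 14.6 to 636 CPM in Dnmt1cKO, with 0 of 7 tested positive (median -2.13) and 1 called lower. The sums of endothelial and immune markers were at most 222 CPM in any library. Control 3 held the lowest epithelial sum of all libraries, 4067 CPM. It also held the highest sum of each other marker list, with 10620 CPM for stromal and 5799 CPM for erythroid markers. Bulk libraries cannot separate fewer cells of a type from less RNA per cell, and the part of these markers or of depth in the values below was not tested.

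All 10 genes passed the filter on low counts, and the fitted difference was positive for 8 of them, against 57.3% of the 12761 genes tested. Trib3, Atf3, Chac1 and Asns, with 0, 1, 3 and 31 Control counts, passed it through the Dnmt1cKO libraries, where they were higher. Their positive signs, which enter this count and the median below, followed largely from passing. Trib3 and Asns were called higher in Dnmt1cKO, where called means an adjusted p under 0.05 in edgeR over all tested genes. That is 2 of 10, beside 1.03% of all tested genes called higher. None of the 10 was called lower, beside 1.55% of all tested genes. Before adjustment (edgeR p under 0.05) 5 of them were higher and 2 lower, beside 8.19% and 9.54% of all tested genes. DESeq2 gave an adjusted p for 9 of the 10 (not for Ddit3) and called 5 higher and 1 lower, beside 4.01% and 8.47% of the 12159 genes to which it gave one. Limma-voom called 0, beside 0.0627% higher and 0.243% lower. The median log2 fold change of the 10 was 2.29, with Trib3 at its lower bound as well as at its fitted value, and that of all tested genes was 0.22. Since these genes were picked with the contrast known, nothing is read from the counts. Of all calls 40.0% were higher. With RLE size factors that share was 19.0% and the median of all genes 0.07, and with unscaled totals 70.6% and 0.38, while the same 8 of the 10 genes had a positive difference under each scaling.

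**Figure D1:**
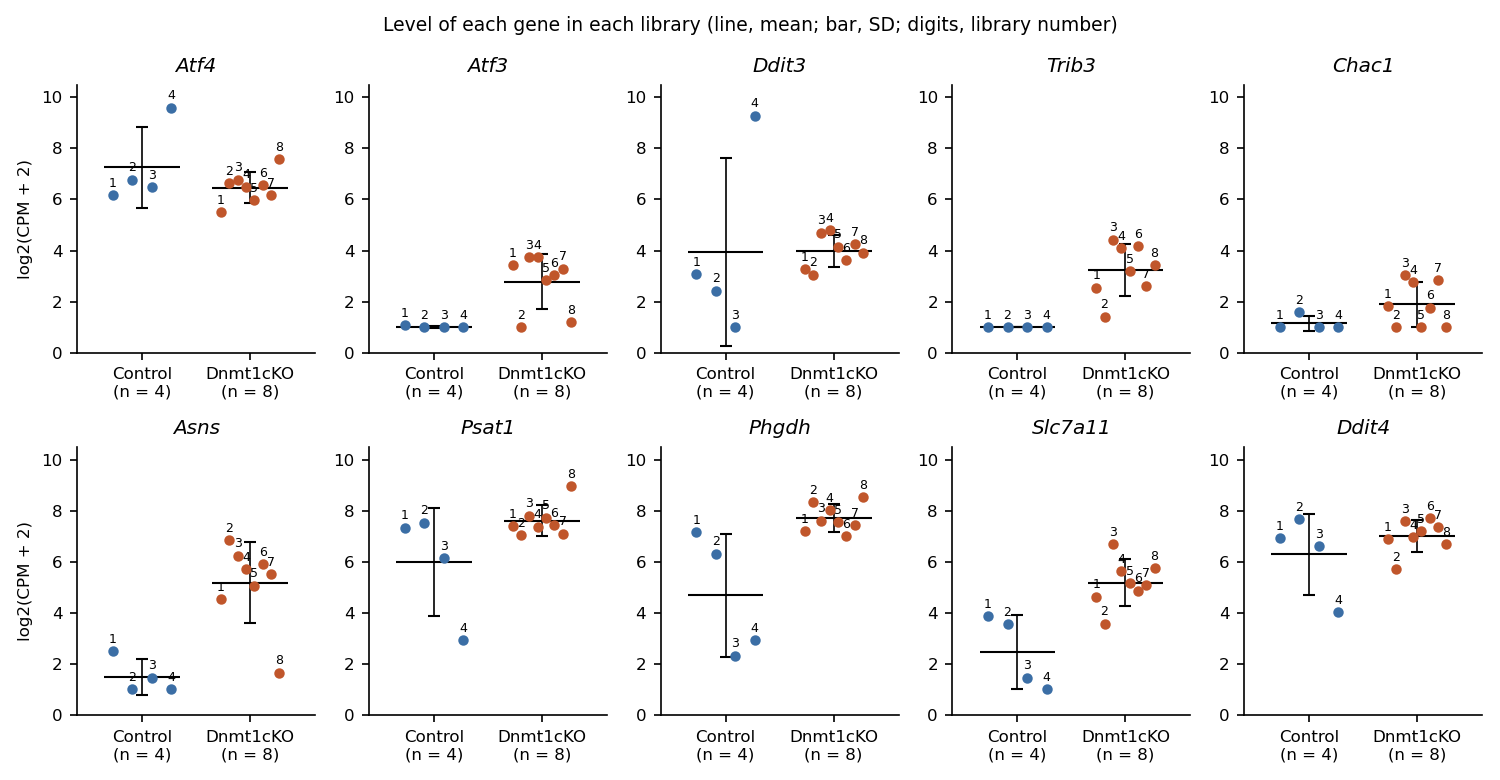
Level of each gene as log2(CPM + 2) in 4 Control (blue) and 8 Dnmt1cKO (orange) libraries, with library numbers, group means (lines) and SD (bars). Trib3 is at 0 CPM in all Controls, Atf4 and Ddit3 are highest in the library labelled Control 4, and Asns in Dnmt1cKO 8 sits near the Controls.

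The feedback gene Trib3 was detected in all 8 Dnmt1cKO libraries and in no Control library. It encodes a pseudokinase that Atf4 and Ddit3 induce and that restrains them in turn (chromosome 2, 152337422 to 152344032, minus strand). Trib3 had 0 counts in each Control library and stood at 3.87, 0.673, 19.5, 15.2, 7.10, 16.2, 4.06 and 8.84 CPM in Dnmt1cKO 1 to 8. The groups did not overlap, which held for this gene alone among the 10 and for 2.59% of all tested genes. The Dnmt1cKO mean of 9.43 ± 6.78 CPM (SD, n = 8) was at least 40.1-fold higher than Control, with 3 counts over the whole Control group as the floor. This bound covers counting error in Control only, not the spread between libraries. That bound rests mostly on the depth of Control 1, and without it the bound was 14.6-fold. All 8 Dnmt1cKO values exceeded what a count of 0 allows in Control 1, 7 did so for Controls 2 and 3, and 4 for the library labelled Control 4, so single libraries cannot all be told apart at this depth. Trib3 was not called without the library labelled Control 4, without it and Control 3, without Dnmt1cKO 1, 3, 4, 5 or 6, or in limma-voom, while it stayed at 0 in every Control.

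Asns, which makes asparagine from aspartate and glutamine and is a standard readout of Atf4 activity, was the other called gene (chromosome 6, 7675169 to 7693254, minus strand). It stood at 3.69, 0, 0.754 and 0 CPM in Controls 1 to 4. In Dnmt1cKO 1 to 8 it stood at 21.0, 113, 73.6, 49.9, 31.3, 57.8, 44.0 and 1.141 CPM. In all, 7 of the 8 Dnmt1cKO libraries were above every Control, and Dnmt1cKO 8, with 4 counts, fell inside the Control range. The fitted log2 fold change was 5.05 ± 1.2 (SE), 33.0-fold, from a Control mean of 1.11 ± 1.75 CPM (SD, n = 4) to 49.0 ± 34.3 CPM (SD, n = 8). It was 7.56 on the log2 scale without Control 1, which holds 30 of the 31 Control counts, and 4.89 and no longer called without the library labelled Control 4.

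Phgdh and Psat1, enzymes of serine synthesis, were well covered in every Dnmt1cKO library and in Controls 1 and 2. Phgdh catalyses the committed step from glycolysis to serine, and Psat1 the transamination that follows it. Phgdh stood at 140, 77.6, 3.02 and 5.69 CPM in Controls 1 to 4 and at 126 to 369 CPM in Dnmt1cKO (median 190). Controls 3 and 4, with 4 and 2 counts, were far below Controls 1 and 2, and 7 Dnmt1cKO libraries lay above the highest Control. Control 3 also had the lowest sum of epithelial markers, and the part of this in its low values was not tested. The log2 fold change of Phgdh was 1.92 ± 0.66 (SE), and 1.07 without Control 3 and the library labelled Control 4. It was not called with all libraries or without that pair, and was called by DESeq2 (1.87) and without Control 1 (2.86). Psat1 stood at 159, 182, 68.6 and 5.69 CPM in Controls 1 to 4 and at 129 to 492 CPM in Dnmt1cKO (median 169), so that 5 Dnmt1cKO libraries overlapped the Controls. Its log2 fold change of 1.0 ± 0.57 (SE) was 0.37 without the same pair of Controls, and it was not called in any fit. In the library labelled Control 4 Psat1 had 2 counts.

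Slc7a11 encodes the cystine importer of the xCT exchanger, which supplies cysteine for glutathione, and its window held the pair of matches shown above. It stood at 12.7, 9.78, 0.754 and 0 CPM in Controls 1 to 4. In Dnmt1cKO 1 to 8 it stood at 22.8, 9.88, 102, 48.0, 33.9, 27.3, 32.1 and 51.3 CPM, with Dnmt1cKO 3 far above the others and Dnmt1cKO 2 within the Control range. The log2 fold change was 2.66 ± 0.97 (SE), 6.34-fold, and 1.93 without Control 3 and the library labelled Control 4. It was called by DESeq2 alone of the fits run.

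Atf3, a stress-induced bZIP factor that is also an early response gene, was nearly absent from Control, with 1 count over the 4 libraries (0.123 CPM in Control 1). In Dnmt1cKO 1 to 8 it stood at 8.83, 0, 11.3, 11.4, 5.18, 6.19, 7.81 and 0.285 CPM. The 6 libraries with 5.18 CPM or more exceeded what a count of 0 allows in Controls 2 and 3, but only 3 of them did so for the library labelled Control 4. Dnmt1cKO 2 and 8, which have the fewest counts of their group, had 0 and 1 counts. In these 2 libraries 3 counts correspond to 0.673 and 0.856 CPM, below the 5.18 CPM or more of the other 6. The ratio of the Dnmt1cKO mean to Control was 81.4 (exact 95% counting interval 14.6 to 3220, counting error only). Atf3 was not called by edgeR with all libraries, and was called by DESeq2 and without Dnmt1cKO 2 and 8, a pair left out after their values were seen.

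Chac1, which degrades glutathione and is induced by Atf4 and Ddit3, was the rarest of the 10 transcripts in Dnmt1cKO. All 3 of its Control counts were in Control 2 (1.01 CPM). It was at 0 in Dnmt1cKO 2, 5 and 8 and between 1.399 and 6.24 CPM in the other 5 Dnmt1cKO libraries, all above Control 2. None of these values exceeded the 8.53 CPM that a count of 0 allows in the library labelled Control 4. Dnmt1cKO 1 and 6, at 1.53 and 1.399 CPM, were also below the 2.26 CPM allowed in Control 3. The ratio of the Dnmt1cKO mean, 2.38 ± 2.58 CPM (SD, n = 8), to Control was 10.1 (exact 95% counting interval 3.47 to 49.1). Chac1 was called under none of the 21 alternatives that tested it.

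Atf4 itself was not higher in Dnmt1cKO. Its RNA stood at 70.2, 108, 87.5 and 771 CPM in Controls 1 to 4 and at 43.0, 97.9, 107, 88.7, 60.7, 93.1, 69.6 and 188 CPM in Dnmt1cKO 1 to 8. Apart from the library labelled Control 4 and Dnmt1cKO 8, all values lay between 43.0 and 108 CPM in both genotypes. The fitted log2 fold change of -1.45 ± 0.55 (SE) became 0.15 without the library labelled Control 4. The Atf4 level in that library rests on 271 counts. With RLE size factors the difference was -2.49 and was called lower, and DESeq2 also called it lower, at -2.50.

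Ddit3, the factor linked to cell death after lasting stress, turned direction with the same library. It stood at 6.39, 3.37, 0 and 620 CPM in Controls 1 to 4 and at 7.73, 6.29, 23.9, 25.9, 15.8, 10.3, 17.1 and 13.1 CPM in Dnmt1cKO 1 to 8. Controls 1 to 3 were thus below all Dnmt1cKO libraries except that Control 1 lay just above Dnmt1cKO 2, and the library labelled Control 4 was above all. The fitted log2 fold change was -3.36 ± 1.10 (SE) with all libraries, 2.20 without the library labelled Control 4 and 1.67 without it and Control 3. It was called lower without Control 1, without Control 2 and without Control 3, and was not called in the other fits that gave an adjusted p (DESeq2 gave none). Limma-voom, which gives libraries quality weights, gave 1.48.

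Ddit4, also called REDD1, restrains the growth kinase mTORC1 and answers to hypoxia and glucocorticoids as well as to Atf4. Its levels overlapped widely, at 118, 202, 94.99 and 14.2 CPM in Controls 1 to 4 and 49.8 to 206 CPM in Dnmt1cKO (median 134). The log2 fold change of 0.33 ± 0.55 (SE) was -0.15 without Control 3 and the library labelled Control 4.

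**Figure D2:**
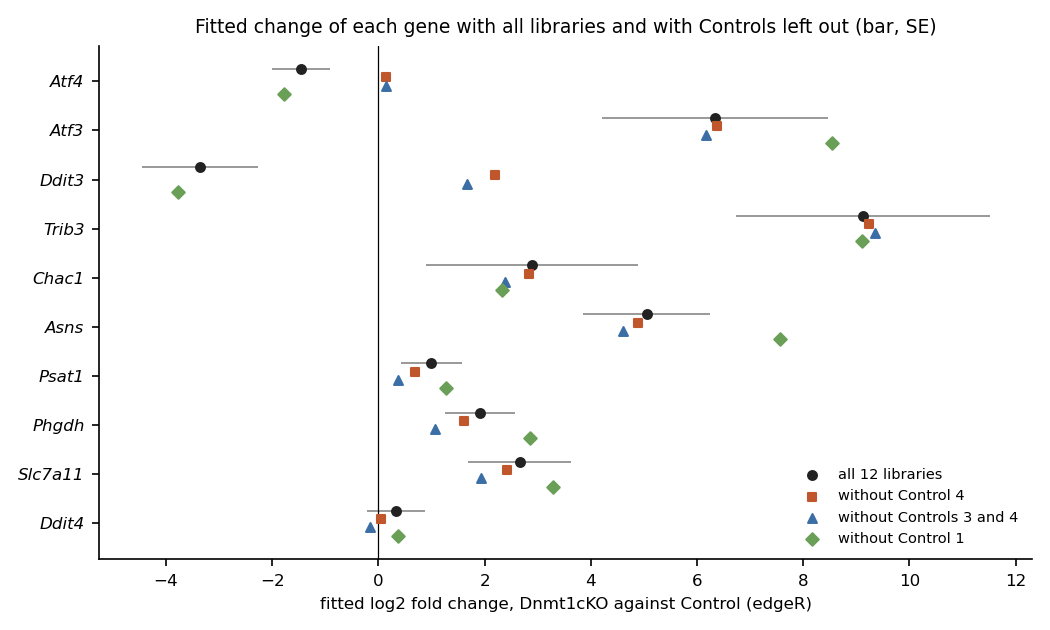
Fitted log2 fold change of each gene between Dnmt1cKO and Control with all 12 libraries (black, bar is SE) and with the library labelled Control 4, Controls 3 and 4, or Control 1 left out. Atf4 moves from -1.45 to 0.15 and Ddit3 from -3.36 to 2.20 without the library labelled Control 4, while Trib3, Atf3, Asns and Slc7a11 stay above 1.9 in the fits drawn.

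Per kilobase of exon, the levels in Dnmt1cKO were highest for Phgdh, at 66.8 to 195 CPM per kb. The medians of the others ran down from Ddit4 (76.1 CPM per kb), Psat1 (57.4), Atf4 (52.7), Asns (21.7), Ddit3 (16.2), Trib3 (3.94), Slc7a11 (3.35) and Atf3 (3.25) to Chac1 (0.895). The ranges over the 8 libraries overlapped for each pair of neighbours in this order. In Control 1, the deepest wildtype library, the levels per kilobase were 73.9 for Phgdh, 67.4 for Ddit4, 54.0 for Psat1 and 40.7 for Atf4, and the other 6 genes stood at 0 to 7.18.

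The sample descriptions also carry a number after the letter b, here called a code, and do not explain it. Deviations from group means correlated at -0.0461 to 0.0685 within codes. With 1 Control library per code and unequal depth, such values cannot show whether a code pairs libraries. The genes were picked with the contrast known, so nothing is read from the counts that follow. Within code 4, the deepest Control (Control 1) meets Dnmt1cKO 3, and all 10 genes were higher in Dnmt1cKO 3, by a median of 1.83 on the log2(CPM + 2) scale, where 48.5% of all tested genes were higher. The differences were 3.73 for Asns, 3.43 for Trib3, 2.82 for Slc7a11 and 2.65 for Atf3, and 0.60 for Atf4. This sets 1 library against 1, and Dnmt1cKO 3 had the highest mean rank over the 10 genes in its group, 7.1. Of all 8 Dnmt1cKO libraries, 5 lay above Control 1 for Atf4, Chac1 and Ddit4, 6 for Psat1, 8 for Trib3 and 7 for the rest. Within codes 5, 6 and 7, 7, 8 and 8 genes were higher, where 56.0%, 64.7% and 78.4% of all tested genes were. The Control side of code 7 is just the library labelled Control 4. Asns was higher by 4.70, 3.60 and 3.36 in these codes, Trib3 by 3.10, 2.19 and 2.41, and Atf4 lower, at -0.27, -0.51 and -2.83.

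Variation inside the Dnmt1cKO group does not use the contrast on which the genes were picked. The coefficient of variation between the 8 libraries ran from 36.9% for Ddit4 and 39.1% for Phgdh to 72.0% for Trib3 and 109% for Chac1. Dnmt1cKO 2 held the lowest level, ties included, of 7 of the 10 genes but the highest of Asns. Dnmt1cKO 8 held the highest level of Atf4, Psat1 and Phgdh and the lowest of Asns and Chac1, the latter tied at 0. Dnmt1cKO 3 held no lowest level and the highest of Trib3, Chac1 and Slc7a11. Dnmt1cKO 2 and 8 were the shallowest of the group, with 10197 and 12725 genes detected, and the part of depth was not tested.

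Across the 8 Dnmt1cKO libraries no gene followed Atf4 past the threshold. The strongest of 9 relations was that of Phgdh, with Pearson's r = 0.684 (exact permutation p = 0.0564, Benjamini-Hochberg adjusted p = 0.455) and Spearman's rho = 0.643 (exact permutation p = 0.0962, adjusted p = 0.751). Without Dnmt1cKO 1 and 8, the libraries farthest from the median of Atf4, r of Phgdh fell to 0.231. Leaving them out also narrows the range of Atf4, so the fall cannot show whether the relation rests on them. With single Dnmt1cKO libraries left out, r of Phgdh ran from 0.436 to 0.855. Asns gave r = -0.378 (exact permutation p = 0.334, adjusted p = 0.725) and rho = 0.310 (exact permutation p = 0.462, adjusted p = 0.751). Without Dnmt1cKO 8 alone it gave r = 0.911 (exact permutation, adjusted p = 0.0232 over the 9 relations, and 0.300 to 0.813 under the other alternatives), and 0.837 (adjusted p = 0.300) without Dnmt1cKO 1 and 8. The relation of Asns with Atf4 thus depended on Dnmt1cKO 8, where Atf4 was at its highest and Asns at its lowest. Trib3 gave r = 0.292 (exact permutation p = 0.483, adjusted p = 0.725) and Psat1 r = 0.656 (exact permutation p = 0.101, adjusted p = 0.455), and without Dnmt1cKO 1 and 8 these were 0.229 and -0.0132.

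**Figure D3:**
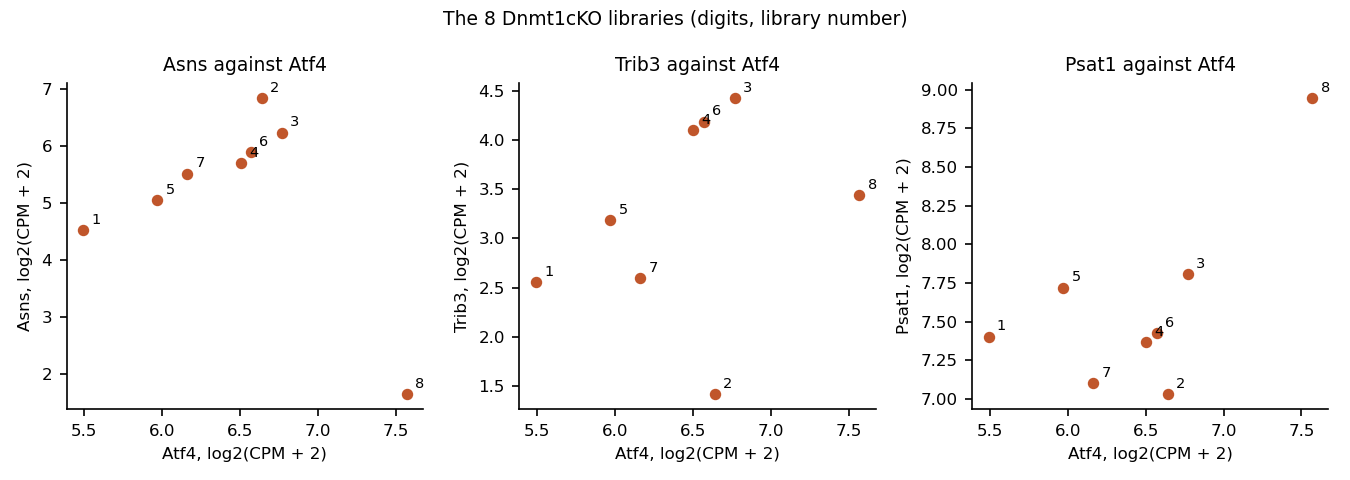
Asns, Trib3 and Psat1 against Atf4 in the 8 Dnmt1cKO libraries, all as log2(CPM + 2), with library numbers. Dnmt1cKO 8 lies apart in the Asns and Psat1 panels, and r of Asns with Atf4 is -0.378 with it and 0.911 without it.

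The 45 pairs among the 10 genes, computed after these relations were seen, gave 30 positive Pearson coefficients. By exact permutation 7 pairs had an unadjusted p under 0.05 and 0 passed after adjustment over the 45. The closest pair was Ddit3 with Slc7a11 (r = 0.844, exact permutation p = 0.0062, adjusted p = 0.210, rho = 0.786 with p = 0.0279), followed by Trib3 with Slc7a11 (r = 0.827, exact permutation p = 0.0119, adjusted p = 0.210) and Atf3 with Chac1 (r = 0.792, exact permutation p = 0.0140, adjusted p = 0.210). Without the 2 libraries farthest from the median of the gene named first, these were 0.810, 0.426 and 0.836.

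Beyond the 10 genes, no gene of the wider pathway was called. The 8 lists of eIF2 alpha regulators, amino acid transporters, tRNA synthetases, one-carbon enzymes, further Atf4 targets, endoplasmic reticulum chaperones, early response genes and hypoxia genes hold 127 genes, of which 120 were tested. The edgeR calls among them were 0, beside 1.03% and 1.55% of all tested genes called higher and lower. Before adjustment (edgeR p under 0.05) 15 were higher and 9 lower, beside 8.19% and 9.54% of all tested genes. DESeq2 called 4 higher and 10 lower of 117 with an adjusted p, beside 4.01% and 8.47% of all genes, and limma-voom called 0. The median log2 fold change of the 120 was 0.40, against 0.22 for all tested genes. A positive difference was found for 76 of the 120, beside 57.3% of all tested genes. In 6 of the 120 all Dnmt1cKO libraries lay above all Controls, beside 2.59% of all tested genes. These 2 shares also belong beside the counts for single lists below.

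Among the regulators of eIF2 alpha, 12 of 14 tested genes had a positive difference (median 0.45), beside 57.3% of all tested genes. Eif2s1, which encodes eIF2 alpha, gave 1.22 ± 0.54 (SE; edgeR, Benjamini-Hochberg adjusted p = 0.221), and Eif2ak3, the kinase PERK of the endoplasmic reticulum, 1.43 ± 0.89 (adjusted p = 0.422). Eif2ak2, the kinase PKR that senses double-stranded RNA, gave -1.35 ± 0.66 (adjusted p = 0.284) and stood at 407 CPM in the library labelled Control 4 against 5.28 to 77.2 CPM in the other Controls.

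The 21 tested tRNA synthetase genes, with the tRNA exporter Xpot, had a median of 0.38 and 12 positive differences, near the share of all tested genes (57.3%). Aars (alanine) and Iars (isoleucine) lay higher in all 8 Dnmt1cKO libraries than in any Control, at 165 to 332 CPM against 19.9 to 164 CPM and at 97.8 to 191 CPM against 2.84 to 82.6 CPM, where 2.59% of all tested genes did so. Neither passed the test (edgeR, Benjamini-Hochberg adjusted p = 0.161 and 0.150), nor did Cars (cysteine; log2 fold change 1.61, adjusted p = 0.247).

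Of 10 amino acid transporter genes tested, 6 had a positive difference, near the share of all tested genes (57.3%). Slc1a4, an exchanger of serine and alanine, stood at 20.2 to 83.3 CPM in Dnmt1cKO against 0 to 18.4 CPM in Control (log2 fold change 2.16 ± 0.91, edgeR adjusted p = 0.201). The groups did not overlap, as for 2.59% of all tested genes. Slc38a1, a glutamine importer, gave -1.22 (adjusted p = 0.163). It stood at 764.9 CPM in the library labelled Control 4 against 87.91 to 240.5 CPM in the other Controls. Without that library the difference of Slc38a1 shrank but stayed negative. Slc7a3, an arginine importer, gave -3.33 (adjusted p = 0.250), with all of its Control signal, 89.0 CPM, in Control 3. Among 15 enzymes of serine, glycine and one-carbon metabolism, 10 had a positive difference. Aldh1l2, a mitochondrial folate enzyme, gave 2.40 (adjusted p = 0.272), and Pycr1, which makes proline, -2.37 (adjusted p = 0.173). Gpt2, an alanine transaminase, gave -1.66 (adjusted p = 0.171). It stood at 304.3 CPM in the library labelled Control 4 against 29.26 to 82.92 CPM in the other Controls. Without that library the difference of Gpt2 shrank but stayed negative.

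Further Atf4 targets were mixed, with 9 of 16 tested genes positive, near the share of all tested genes (57.3%), and a median of 0.24. Nupr1, a stress-induced chromatin protein, gave 2.25 (edgeR adjusted p = 0.359), and Herpud1, which helps degrade misfolded proteins, 1.45 (adjusted p = 0.473). Gadd45a, a growth arrest gene, gave -1.68 (adjusted p = 0.264). It stood at 392.4 CPM in the library labelled Control 4 against 3.015 to 22.74 CPM in the other Controls. Without that library the difference of Gadd45a was positive and not called. Chaperones and sensors of the endoplasmic reticulum had 17 of 20 positive, beside the same 57.3%, and the highest median of the 8 lists, 0.86, with 0 called. In 2 of these 20 genes, Hyou1 and Dnajb11, the groups did not overlap, beside 2.59% of all tested genes. Hyou1, a chaperone of that compartment, stood at 202 to 406 CPM in Dnmt1cKO and at 121, 121, 47.5 and 5.69 CPM in Controls 1 to 4, without overlap, with a log2 fold change of 1.86 ± 0.54 (edgeR adjusted p = 0.0528). It was 1.57 and called without the library labelled Control 4 (edgeR adjusted p = 0.0408), and over the alternatives without a block its adjusted p ran from 0.00652 (DESeq2) to 0.264 (limma-voom). Dnajb11 and Pdia4, a cochaperone and a disulfide isomerase, gave 1.29 and 1.10 (edgeR adjusted p = 0.201 and 0.191).

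Early response genes, which tissue dissociation can induce, and hypoxia genes were set beside Atf3 and Ddit4. Of 15 tested early response genes 8 had a positive difference, beside 57.3% of all tested genes, and their summed level was 414 to 1527 CPM in Control and 483 to 807 CPM in Dnmt1cKO. Junb gave 2.78 (edgeR adjusted p = 0.182) and Ier2 -1.76 (adjusted p = 0.0725). Ier2 stood at 904.2 CPM in the library labelled Control 4 against 50.65 to 165.8 CPM in the other Controls. Without that library the difference of Ier2 shrank but stayed negative. Ier3 had 0 counts in Control and 0 to 6.93 CPM in Dnmt1cKO. Its mean was at least 14-fold higher by counting error only, and it was not called (edgeR adjusted p = 0.141). Of 12 tested hypoxia genes 3 had a positive difference, with a median of -0.35. P4ha1, a collagen prolyl hydroxylase, gave 1.138 (adjusted p = 0.231), Ndrg1 -2.50 (adjusted p = 0.248) and the glucose transporter gene Slc2a1 -0.57 (adjusted p = 0.601). In the library labelled Control 4 Ndrg1 stood at 406.6 CPM and Slc2a1 at 355.4 CPM. The other Controls held 0 to 11.8 CPM and 50.51 to 183.8 CPM. Without that library the difference of Ndrg1 was positive and not called, and that of Slc2a1 shrank but stayed negative.

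**Figure D4:**
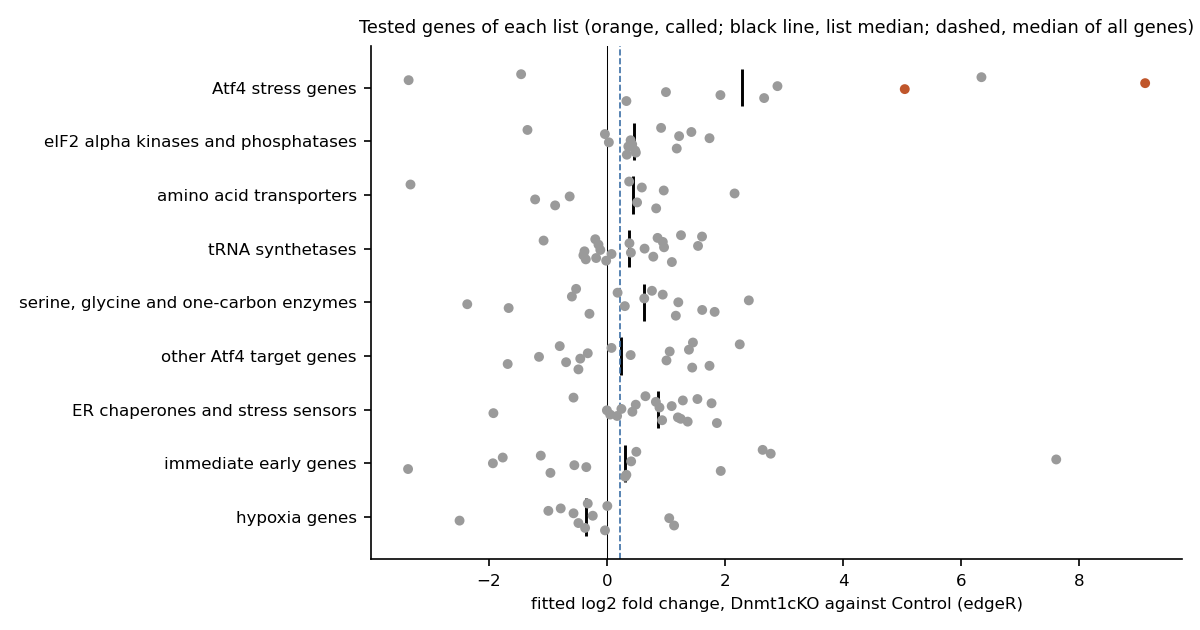
Fitted log2 fold change (Dnmt1cKO against Control) of each tested gene of the 10 Atf4 stress genes and of the 8 pathway lists, with list medians (black lines) and the median of all tested genes (dashed, 0.22). Trib3 and Asns are the called genes (orange), and the list medians run from -0.35 for hypoxia genes to 0.86 for endoplasmic reticulum chaperones.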

How the data were processed

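The deposited table holds expected counts that the authors made per gene symbol with RSEM 1.2.3 and Bowtie 0.12.9 on mm10, after bcl2fastq 2.17.1.14, per the submitters' processing notes. For annotation and strand setting, nothing is stated in the labels. Expected counts were rounded and fitted over all 12 libraries with edgeR 4.0.16 (R 4.3.3): genotype only, TMM, filterByExpr (minimum count 10, total 15), robust quasi-likelihood F-test and Benjamini-Hochberg adjustment over 12761 genes. The coefficient of variation between libraries was 0.984. Alternatives used DESeq2 1.42.0, limma-voom 3.58.1, other scalings and filters, left-out libraries and blocks. Correlations used log2(CPM + 2). Exon lengths and positions are GENCODE M21 (GRCm38). No molecular identifiers are mentioned, so intervals cover counting error only. The labels do not say whether libraries of 1 code came from separate pools, so p-values describe only library-to-library spread, which may be technical. Members, lists and the left-out Controls were chosen with earlier results of these data known. From each list the 3 genes with the smallest p were named, since none was called.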

Additional observations from a re-analysis of the deposited data

Results flagged for a closer look

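Of the 19 sets of values tested (each gene in each genotype, where its level varied), 7 had a library far from the rest by Dixon's criterion. Its chance rate of about 1 in 20 holds for normally spread, independent values. CPM levels are skewed and the sets share libraries, so no excess is read from 7 of 19. The library labelled Control 4 stood apart for Atf4 (770.6 CPM, the next Control at 107.6) and Ddit3 (619.9 CPM, the next at 6.39), and the same library held 5.69 CPM of Psat1 and Phgdh. Dnmt1cKO 8 stood apart for Atf4 (188 CPM, the next at 107.1) and Psat1 (492 CPM, the next at 221.9). Dnmt1cKO 3 stood apart for Slc7a11 (101.8 CPM, the next at 51.3). Control 1 for Atf3 (0.123 CPM) and Control 2 for Chac1 (1.01 CPM) were set apart because the other 3 Controls were at 0, so they mark 1 and 3 counts.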

How the results depend on the processing

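Genes called higher and lower numbered 132 and 198, and 2 of the 10 genes (Trib3, Asns) and 0 pathway list genes were called. With RLE factors 726 genes were lower, with 1 of the 10 genes (Atf4) lower and 1 higher and 3 lower pathway genes. With library totals alone 47 were lower. Without a filter 1 pathway gene (Hyou1) was higher. DESeq2 called 487 higher and 1030 lower, 5 of the 10 genes higher and 1 lower (Atf4), and 4 and 10 pathway genes. Limma-voom called 8 higher and 31 lower and 0 of the 10 genes. Without Control 3 and the library labelled Control 4 there were 45 higher, 2 lower and 0 of the 10 genes. Leaving out 1 library gave 60 (without the library labelled Control 4) to 657 (without Control 1) higher, 36 to 494 lower, 0 to 3 of the 10 genes higher and 0 to 1 lower, and 0 to 5 higher and 0 to 2 lower pathway genes. The causes were not tested. Deviations from group means correlated at -0.0461 to 0.0685 within codes and -0.055 to 0.0611 within title numbers. With 1 Control library per number and unequal depth, this cannot show whether either pairs the libraries. As a replicate block, the code gave 72 lower genes, 3 of the 10 genes higher (Phgdh beside Trib3 and Asns) and 2 higher pathway genes, and the title number 34 higher, 31 lower and 0 of the 10 genes, with a Ddit3 difference of 0.52. Correlations with Atf4 passed for 0 to 1 gene when 1 Dnmt1cKO library was left out. Their r then ran from -0.147 to 0.314 for Ddit3, -0.325 to 0.255 for Chac1, -0.638 to 0.911 for Asns and -0.00101 to 0.764 for Psat1. Without the 2 libraries farthest in Atf4 it was -0.101, 0.279, 0.837 and -0.0132, and with the code 7 libraries averaged 0.335 for Chac1 and 0.497 for Asns. Trib3, Asns, Atf3, Psat1, Phgdh and Slc7a11 had a positive difference in each of 22 alternatives, and Chac1 in 21. Of the Control libraries, 1 is so shallow that a count of 0 in it allows levels up to 8.53 CPM.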
